A study of Mus musculus with 2 samples.

Results

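FOXO proteins are forkhead transcription factors that hold cells in quiescence and help them withstand stress. Insulin and growth factor signals act through PI3K and AKT to phosphorylate them and move them out of the nucleus, and when those signals drop they return and switch on cell cycle inhibitors, antioxidant enzymes and genes of fuel use. FOXO activity is set mainly at the protein level, so the transcripts measured here describe how much message each factor and target had, not how active the factors were. The 10 genes followed here were 3 FOXO factors (Foxo1, Foxo3 and Foxo4) and 7 genes known as their targets or as brakes on the cell cycle (Ccng2, Rbl2, Bcl6, Txnip, Irs2, Sod2 and Cat). A gene was taken when a probe on the arrays bore its name, or an accession that RefSeq gives to it. Probes were found for 9 of the 10 genes, 13 probes in all, out of 41164 probes and 27790 genes measured. No probe for Irs2 was found, so Irs2 is not analysed here.

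The measurements compared a pair of mouse melanoma lines that both carry GFP, both grown untreated in serum-containing medium. B16F1-GFP-M is the maternal line, B16F1 melanoma cells of C57BL6 origin transfected with GFP, with geneticin used to select for the GFP vector. B16F1-GFP-D is a clonal line grown from disseminated GFP+ cells sorted from pooled organs of mice that had stayed free of tumour for about a year after challenge with B16F1-GFP cells. The pool mixed immunised mice, given irradiated B16F1 cells that express GM-CSF, with control mice given irradiated cells with an empty vector. The line is a single clone, cloned because the sort also held host cells without GFP. RNA of both lines was hybridised together on 2 Agilent arrays of 1 slide with the dyes exchanged: on array 1 B16F1-GFP-D was in Cy3 and B16F1-GFP-M in Cy5, on array 2 the reverse. The study asked how the line from disseminated cells differs from its parent and followed GILZ, the product of Tsc22d3, together with FOXO3A, so the FOXO genes bear on its question.

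Nothing in the labels says that the arrays held separate cultures, so each line counts as 1 sample and no test of the difference was possible. The SD printed beside a ratio (n = 2 arrays) covers the dyes and the arrays, not the spread between cultures. All ratios are on the log2 scale and are positive where B16F1-GFP-D had more message than B16F1-GFP-M. A constant of 50 was added to each signal before the ratio was taken, which steadies dim probes. A gene was read from its brightest probe. It was taken as detected when the scanner software placed that probe well above background in the same line on both arrays, and called when it was also at least 2-fold apart, a log2 ratio of 1 or more in size, in the same direction on each array. By this rule 12540 genes were detected, of which 387 (3.09%) were called higher and 243 (1.94%) lower in B16F1-GFP-D, 5.02% in either direction. The ratios of the arrays had a pooled SD of 0.15 over the detected genes. Melanocyte identity was present in the RNA, with all 7 melanocyte markers detected and none called. Of these Mitf, the lineage's master regulator, had the largest ratio, -0.92 ± 0.04. Among markers of cells the sort could have carried over, 3 of 7 fibroblast and 3 of 7 leukocyte markers were detected and none was called. Pdgfrb led the fibroblast markers, at least 1.68-fold higher in B16F1-GFP-D because it was not well above background in B16F1-GFP-M on either array, and Cd68 led the leukocyte markers at 0.44 ± 0.11. These dim markers depended on the processing: by the scanner software's ratios 2 of the 3 detected fibroblast markers (median 1.97 against 0.40 as reported) and 1 leukocyte marker were called higher, and with an added constant of 0 in place of 50 it was 1 fibroblast marker (median 1.13) and 0 leukocyte markers. The part of such cells in the values below was not tested.

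Only Txnip of the FOXO genes was called. Of the 9 genes with a probe 7 were detected, 0 were called higher and 1 was called lower, against background shares of 3.09% and 1.94%. Txnip was 2.77-fold lower in B16F1-GFP-D. Foxo1, Cat and Bcl6 were also lower on both arrays but by less than 2-fold, and Ccng2, Rbl2 and Sod2 were higher on both arrays, again by less than 2-fold. Foxo3 and Foxo4 were not detected. The median log2 ratio of the 7 detected genes was -0.26, beside -0.0081 for all detected genes, and their ratios ran from -1.47 to 0.29. A shared sign on the arrays was common in itself, at 41.0% (higher) and 42.8% (lower) of everything detected.

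Probes of 3 of the genes are shown first so that a reader can see what was hybridised. These 3 lie in coding sequence: the brighter Foxo1 probe, from which Foxo1 was read, the single Foxo4 probe, and the dimmer of the Txnip probes, which serves as a check on the brighter one. They are given 5′ to 3′ in the sense of the transcript, with their positions on mm9 as the array files give them.
Foxo1, brighter probe, chr3:52150183-52150242, + strand: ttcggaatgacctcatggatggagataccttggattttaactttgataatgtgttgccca
Foxo4, chrX:98454216-98454275, + strand: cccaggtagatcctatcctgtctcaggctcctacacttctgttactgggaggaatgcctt
Txnip, dimmer probe, chr3:96363085-96363259, + strand: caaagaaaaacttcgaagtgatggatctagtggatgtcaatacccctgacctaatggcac
The 60 bases of this Txnip probe span 175 bases of the genome, so it bridges an exon junction, whereas the brighter Txnip probe lies farther along the same strand at chr3:96365147-96365206. Each of the other 12 probes covers 60 contiguous bases. For probes not shown, the place within the transcript was not analysed here.

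**Figure D1:**
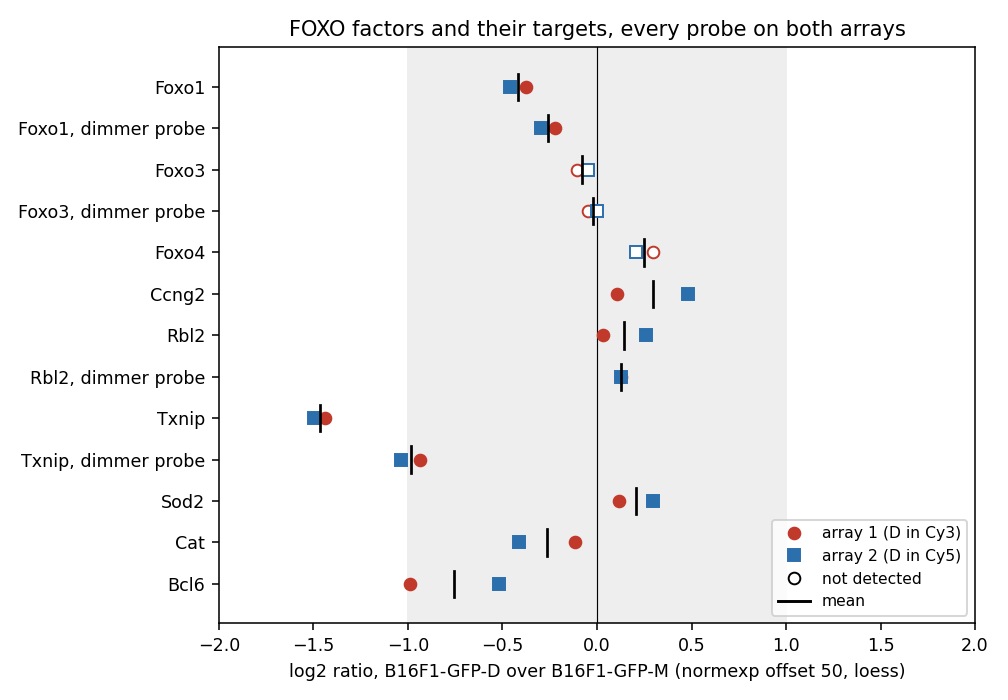
For each of the 13 probes, the x axis gives the log2 ratio of line D to line M, with a circle for array 1, a square for array 2, a bar for the mean and open symbols for probes not detected. The grey band marks less than 2-fold; only the brighter Txnip probe lies outside it on both arrays, at -1.44 and -1.50.

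Among the factors, Foxo1, the FOXO protein best known from insulin signalling in liver, muscle and adipose tissue, was detected by both of its probes. The brighter probe read -0.37 on array 1 and -0.46 on array 2, a mean of -0.42 ± 0.06 or 1.34-fold lower in B16F1-GFP-D. The second Foxo1 probe, at chr3:52153289-52153348, read -0.22 and -0.30. All 4 readings put Foxo1 slightly lower in B16F1-GFP-D and none came near the 2-fold mark. Of the 12540 detected genes 16.1% had a lower ratio than the brighter Foxo1 probe.

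Foxo3, the mouse gene of the FOXO3A protein that the study follows, could not be measured on these arrays. Its brighter probe, at chr10:41905752-41905811 on the - strand, was well above background in only 1 of 2 arrays for each line, in each case the array where that line was in Cy5. Its ratios were -0.11 and -0.047. The other Foxo3 probe, at chr10:41900547-41900606, was not well above background in either line on either array. These data therefore hold no usable comparison of the Foxo3 message between the lines.

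Foxo4, an X-linked member of the family, behaved likewise. Its probe was well above background only in the Cy5 channel of each array, and its ratios were 0.29 and 0.21. The constant of 50 added to each signal holds the ratio of a dim probe near 0, and with a constant of 0 the mean ratio of Foxo4 was 0.67, while the scanner software's own ratios were 1.22 and 1.73. Foxo4 thus had the same sign under each setting but no settled size. Over all genes 2195, or 7.90%, shared this pattern of being well above background in Cy5 alone on each array. Foxo6, the remaining FOXO paralog, was not detected either.

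**Figure D2:**
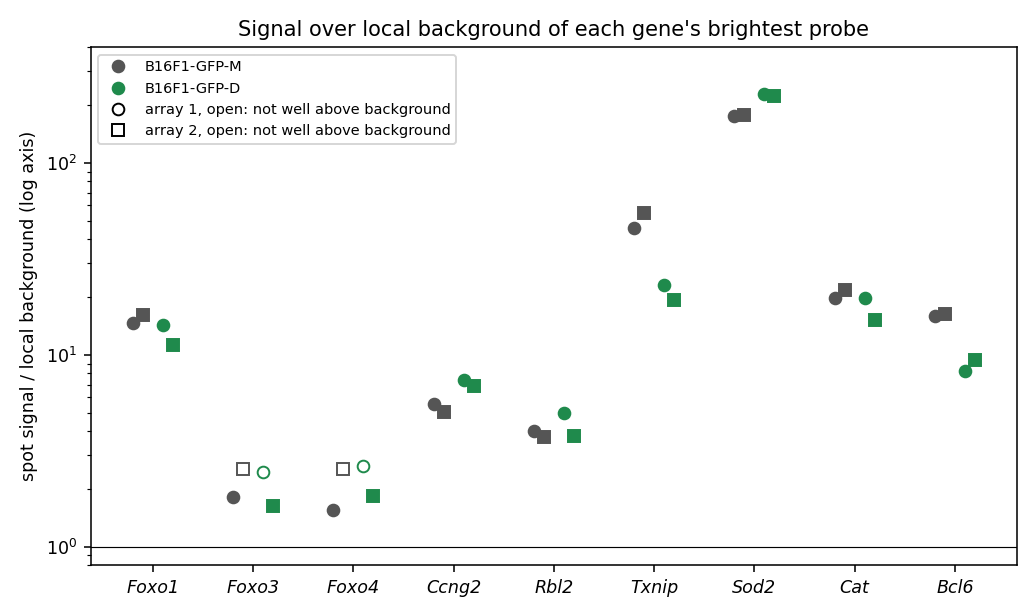
Spot signal divided by local background on a log axis for the brightest probe of each gene, with grey for B16F1-GFP-M, green for B16F1-GFP-D, circles for array 1 and squares for array 2; open symbols were not well above background. Foxo3 and Foxo4 sit between 1.54 and 2.62 times background, and only their Cy5 signals (M on array 1, D on array 2) are filled; values of different dyes or probes are not to be set against each other.

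Among the targets that restrain the cell cycle, Ccng2, an atypical cyclin that is high in resting cells, was slightly higher in B16F1-GFP-D. It read 0.11 on array 1 and 0.48 on array 2, a mean of 0.29 ± 0.26. The arrays disagreed here about as much as the ratio itself, and only 7.25% of detected genes had a larger SD between arrays. Rbl2 encodes the pocket protein p130, which with E2F4 represses cell cycle genes in quiescent cells. Its brighter probe, at chr8:93647120-93647179, read 0.03 and 0.26, and its other probe, at chr8:93646362-93646421, read 0.13 and 0.13. Both Rbl2 means, 0.14 ± 0.16 and 0.13 ± 0.0024, were within the pooled SD of the arrays.

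Bcl6, a transcriptional repressor that FOXO factors induce and that is known to repress the cyclin gene Ccnd2, had the second lowest ratio of the detected members. It read -0.99 on array 1 and -0.52 on array 2, a mean of -0.76 ± 0.33 or 1.69-fold lower in B16F1-GFP-D. Array 1 alone came close to the 2-fold mark, and 2.78% of detected genes had a larger SD between arrays. Of the detected genes 5.18% had a lower mean ratio than Bcl6. Bcl6 has 1 probe, at chr16:23965160-23965219 on the - strand, so no other probe checks it. The 6 detected genes among its corepressors and its paralog included 0 called, and Tbl1xr1, a subunit of the corepressor complex that binds BCL6, had the largest ratio at -0.50 ± 0.01.

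Txnip encodes an arrestin-like protein that binds thioredoxin and limits glucose uptake. The level, as normalised log2 intensity, was 9.52 in B16F1-GFP-D and 10.96 in B16F1-GFP-M on array 1, and 9.55 against 11.05 on array 2. Loess within each array had smoothed out dye effects before these levels were taken. Their closeness across the arrays therefore does not show how much the dyes mattered. With median centring in place of loess the Txnip ratios were -2.46 on array 1 and -0.24 on array 2. As reported, the ratio was -1.44 on array 1 and -1.50 on array 2, a mean of -1.47 ± 0.04. Only 80 detected genes (0.638%) had a lower mean ratio. The junction-spanning probe read -0.93 and -1.04, a mean of -0.99 ± 0.07. That probe is dimmer, with signals of 3.06 to 8.63 times local background against 19.4 to 54.6 for the brighter probe, and with a constant of 0 the 2 probes were closer, at -1.56 and -1.35. Whether fewer cells held Txnip message or each cell held less cannot be told apart in RNA of whole cultures.

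The 2 antioxidant enzymes had small ratios of opposite sign as reported. Sod2, the manganese superoxide dismutase of mitochondria, read 0.12 and 0.30, a mean of 0.21 ± 0.13. Its signal was 176 to 228 times its local background, so the added constant weighs little in its ratio. Cat, the peroxisomal catalase that breaks down hydrogen peroxide, read -0.12 and -0.41, a mean of -0.26 ± 0.21. Both lie among the bulk of the detected genes, of which 70.2% had a lower ratio than Sod2 and 26.2% a lower ratio than Cat. With median centring in place of loess the arrays disagreed in sign, at -0.94 and 1.87 for Sod2 and -1.12 and 0.73 for Cat.

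A search of promoters asked which of these genes hold short letters known from FOXO binding, insulin response elements or carbohydrate response elements. RefSeq promoters of GRCm38.p6, 250 bases before to 50 after each start, were at hand for 9 of the 10 genes, all but Foxo4, and both strands were searched. GTAAACA, a core of FOXO binding sites, was found in 1 of the 9, Txnip, and in 3.65% of 32851 promoters. CAAAACA, from the insulin response element, was in Ccng2 and Irs2 and in 6.28% of promoters. CACGTG, the E-box of carbohydrate response elements, is not a FOXO site and reads the same on both strands. It was in Irs2 and Bcl6 and in 7.15% of promoters. Bcl6 held neither of the other motifs. The stretches around the matches in members with a probe follow with the matched letters in capitals. A link between these letters and the ratios was not tested.
Txnip, chr3:96557825-96557853, + strand: ttggaggcctgGTAAACAagggccaagta
Ccng2, chr5:93267546-93267572, + strand: cgtcgcagactCAAAACAaaaacaagg
Bcl6, chr16:23988896-23988923, - strand: gtcacggagccCACGTGacggcggcgga
The match in Txnip begins 121 bases before the start, that in Ccng2 16 bases and that in Bcl6 60 bases. A match describes letters in the window and is not evidence of binding.

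The same comparison was made for 11 lists of genes around the FOXO factors. Upstream, 23 of 24 genes of the PI3K-AKT arm were detected, 1 was called higher and 2 lower, and their median log2 ratio was -0.19. Trib3, a pseudokinase that binds AKT, had the lowest ratio, -3.24 ± 0.31, and its second probe read a mean of -2.59. Inpp4b, a phosphatase of phosphoinositides, had -1.24 ± 0.05, although its second probe, at -0.74, did not reach 2-fold. Sgk1, an AKT-related kinase that also phosphorylates FOXO, was higher at 1.43 ± 0.24. It was well above background on only 1 of 2 arrays in B16F1-GFP-M, and its size was not settled, at 2.31 with a constant of 0 and 2.87 by the software's ratios. The kinases Akt1 and Akt2, which phosphorylate FOXO, were not called, with Akt1 at 0.28 ± 0.06 and Akt2 at 0.26 ± 0.03.

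Among direct regulators of FOXO protein, 21 of 22 were detected and 1 was called, with a median of 0.10. The called gene was Tsc22d3 (GILZ), whose brightest probe read -1.19 and -1.16, a mean of -1.17 ± 0.02. Its other probes gave means of -0.87 and -0.39. The Tsc22d3 message was thus lower in B16F1-GFP-D by every probe, but as reported past 2-fold by only 1 of 3. Its size was not settled. The brightest probe had a mean of -1.56 with a constant of 0 and -1.72 by the software's ratios. Ywhae, an adaptor that holds phosphorylated FOXO in the cytoplasm, had 1.00 ± 0.10 and missed the call on array 2 at 0.93.

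FOXO targets that act on the cell cycle had a median of -0.37, with 17 of 18 detected. Of these 12 were lower on both arrays, as were 42.8% of all detected genes. By the rule 0 were called higher and 3 lower, beside 3.09% and 1.94% of all detected genes. By the software's ratios the median was -0.65, with 2 called higher, Cdkn1c and Gadd45b, and 4 lower. The 3 called lower as reported were Ddit4, an inhibitor of mTORC1 induced by stress, at -1.75 ± 0.13, Gadd45a, a growth arrest gene of the DNA damage response, at -1.56 ± 0.12, and Ccnd2 at -1.20 ± 0.0041. Ccnd2 encodes a D-type cyclin that FOXO is known to repress, unlike the induced genes of the list, and its 3 probes had means of -1.20, -1.24 and -1.13. The inhibitors named by the study did not reach 2-fold as reported. Cdkn1a (p21) read -0.82 and -0.73, a mean of -0.77 ± 0.06. Cdkn1b (p27) read -0.88 and -0.77, a mean of -0.83 ± 0.08, and its other probes had means of -0.71 and -0.92. Cdkn1c (p57) was higher at 0.43 and 0.42, and it was well above background in B16F1-GFP-M on only 1 of 2 arrays. Under 11 alternative settings the mean ratio of Cdkn1c ran from 0.42 to 1.55.

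Targets in the remaining classes split. Of the cell death targets 6 of 9 were detected, 1 was called higher and 1 lower, and the median was 0.048. Bnip3, a mitochondrial protein of mitophagy that hypoxia also induces, was higher at 1.92 ± 0.21, and Trp53inp1, a p53-induced gene, was lower at -1.48 ± 0.02. Of the metabolic targets 9 of 13 were detected, 1 was called higher and 2 lower, with a median of -0.27. Ppargc1a, the coactivator of mitochondrial biogenesis, had the highest ratio, 2.56 ± 0.25, and its second probe gave 2.67. Sesn2, a stress-induced inhibitor of mTORC1, had -1.36 ± 0.13, and Eif4ebp1, a repressor of cap-dependent translation, had -1.13 ± 0.09, while their second probes, at -0.77 and -0.34, did not reach 2-fold. Of the autophagy and proteolysis targets all 11 were detected, 1 was called each way, and the median was -0.24. Gabarapl1, which coats autophagosomes, had -1.32 ± 0.01, and Glul, glutamine synthetase, had 1.16 ± 0.21; the second Gabarapl1 probe gave -0.82, and the other Glul probes gave 0.87 and 0.92.

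**Figure D3:**
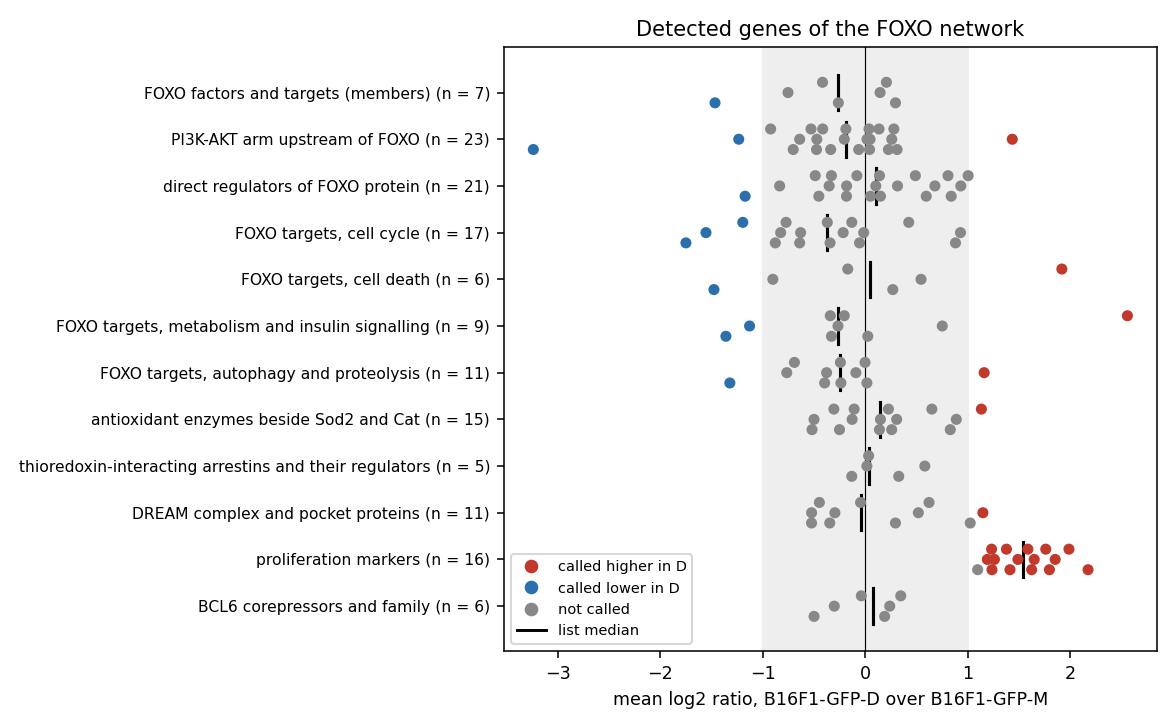
Mean log2 ratio of line D to line M on the x axis for the detected genes of the members and of 11 lists, with red for genes called higher, blue for called lower, grey for not called and a bar at each median; the grey band marks less than 2-fold and points are spread vertically for legibility. The cell cycle targets have a median of -0.37 and the proliferation markers 1.54.

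Partners of the members added few calls. Beside Sod2 and Cat, 15 of 16 antioxidant enzymes were detected and 1 was called, Txn1, the thioredoxin that TXNIP binds, at 1.13 ± 0.03; the median was 0.15. None of the 5 detected arrestin relatives and regulators of Txnip was called, and Arrdc1, an arrestin-domain protein, had the largest ratio at 0.58 ± 0.11. Of the DREAM complex and pocket proteins, which repress cell cycle genes together with p130, 11 of 12 were detected and 1 was called, Rbl1 (p107), an E2F target itself, at 1.15 ± 0.10, with a median of -0.047. The proliferation markers, which are low in quiescent cells, stood on the other side, with all 16 detected, 15 called higher and a median of 1.54, although with median centring in place of loess 2 were called higher at a median of 1.73. Mcm3, Mcm4, Aurkb and Pcna had the largest ratios of these, from 1.80 to 2.17, and Mki67 had 1.38 ± 0.16. Their part in the ratios of the FOXO genes was not tested.

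**Figure D4:**
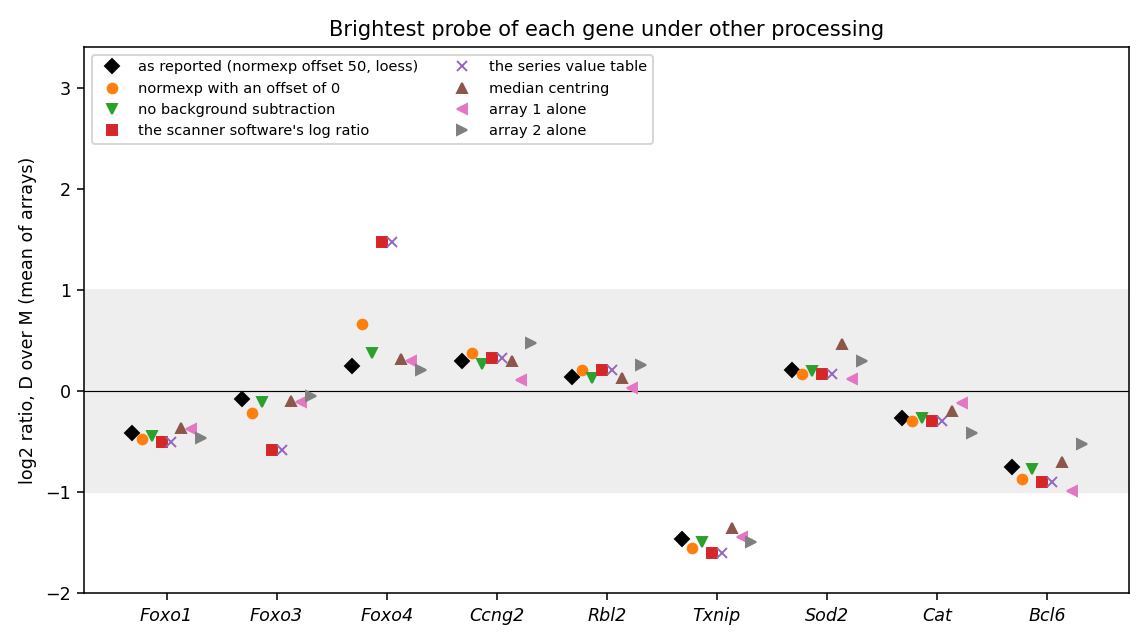
The log2 ratio of each gene's brightest probe as reported (black diamonds) and under 7 other ways of processing, on the y axis as line D to line M; the grey band marks less than 2-fold. Txnip ranges from -1.61 to -1.35 in this plot, and Foxo4, which was not detected, ranges from 0.21 to 1.48.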

How the data were processed

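The authors deposited Agilent Feature Extraction 10.7.3.1 scanner output as intensity per spot and channel, the software's log10 ratios and quality flags, and a series table that the authors gave as log10 ratios of Cy5 over Cy3. The array design's annotation columns, deposited as other text, gave names and mm9 positions. How the authors filtered or called genes is not given in the sources used here. Here mean intensities were corrected with limma 3.58.1 in R 4.3.3 (normexp, offset 50, median local background), normalised by loess within each array with control and outlier spots at weight 0, and turned for the dye exchange. Outlier-flagged spots (143 on array 1, 176 on array 2) were dropped and spots of a probe averaged. The offset pulls ratios of dim probes towards 0. Symbols came from RefSeq through accessions: 27192 of 28069 probes with such an accession matched. The software placed 44.1% to 60.7% of spots well above background by array and line, with 0 saturated. The number of arrays limits precision. No test was made. The steps were tested on simulated data with 50 detected probes at each fold. The rule called 0 of 50 at 1.5-fold, 11 of 50 at 2-fold and 50 of 50 at 3-fold. A true 2-fold difference was thus mostly missed in the simulation. Of 19100 unchanged probes 0 were called. The size of the simulated noise was set, with no spread between cultures and no dye effect that changes with intensity. The count of unchanged probes called therefore does not give the rate of false calls in these data. Bounds used Aquantile-scaled channel values. Alternatives covered the background step (offset 0 or none), the scaling (median centring, Aquantile), the software's ratios, the series table, the filter, the choice of probe, single arrays and the fold limit. Named genes were all members with every probe, Tsc22d3, the Cdkn1 inhibitors, Mki67, and from each list the called genes, up to 4, or the detected gene with the largest ratio; Akt1, Akt2, Ywhae and Gadd45b were added after their values were seen. The members and lists were chosen with earlier results of these data known.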

Additional observations from a re-analysis of the deposited data

How the results depend on the processing

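Each of the 13 alternatives left 0 members called higher. Of these, 8 changed a member's ratio and 5 (Aquantile, the filters and the fold limits) left every member's ratio as reported, so they could not move a sign. Among the 8, Txnip was called lower under 7. A single array could not end this call, because the call already asks for 2-fold on each array. It could not turn a member's sign either, since each member's brightest probe had the same sign on both arrays as reported. The software's ratios and the series table hold nearly the same values and are not separate checks. With median centring in place of loess 0 members were called, as the ratios of Txnip were -2.46 and -0.24 on the arrays. No member's mean changed sign under the 8, but with median centring 6 of the 9 had opposite signs on the arrays, Foxo1 (-1.34 and 0.62) and Bcl6 (-1.93 and 0.53) among them. Median centring also ended the call of Tsc22d3 and all 3 calls of the cell cycle targets, and left 2 of the proliferation markers called, against 12 by the median of probes. The median ratio of the members was -0.047 on array 2 alone and -0.11 on array 1 alone, where Foxo3 and Foxo4 also count as detected, and -0.08 without a filter. Where all probes of a gene were combined by their median, Tsc22d3, Sgk1, Inpp4b, Eif4ebp1 and Glul lost their calls, and the median of the direct regulators turned to -0.02; Sgk1 also lost its call where both lines had to be above background. The medians of some small lists near 0, such as DREAM (0.04 with median centring), turned as well. Over everything detected, 387 genes were called higher and 243 lower as reported. These counts became 759 and 597 by the software's ratios, 635 and 442 at offset 0, 45 and 19 after median centring, and 1100 and 880 at 1.5-fold. The slide could not be taken as a block, since both arrays lie on 1 slide. No paired analysis was possible because a second replicate of either line is not at hand. Dim signal limits Foxo3 and Foxo4, and 1 sample per line limits every ratio.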
